A study of Mus musculus with 6 samples.

Results

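The Janus kinases and the SOCS inhibitors that restrain them are described here across 3 mouse T-cell lymphomas. The members were chosen by name as genes of these families: the 4 kinases Jak1, Jak2, Jak3 and Tyk2, and the 6 inhibitors Socs1, Socs2, Socs3, Socs5, Socs7 and Cish. All 10 were found among the 34245 genes of the expression table. RNA-seq was done on total RNA from 3 independent peripheral T-cell lymphomas (PTCL), taken from lymph nodes of FVB/N mice that were terminally sick. The mice were Dnmt3b+/-, with a conventional knockout of 1 allele that is present in every cell and not limited to T cells. No treatment is named, and the age of these mice is not given in the sources used here. All 3 tumors form 1 group, so every value below is a description of how the members differ among themselves and between tumors. The methylation libraries of the series were not analysed here, nor were RNA-seq libraries of control T cells or of Dnmt3a-deficient tumors.

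Values are the deposited FPKM, fragments per kilobase of exon and per 1000000 reads, and the depth recovered from the values was 30726570, 18969988 and 20770928 reads in tumors 1, 2 and 3. The targeted gene Dnmt3b had 0.975, 1.55 and 1.25 FPKM in tumors 1, 2 and 3, and without a wild-type library these levels do not test the genotype. The T-cell label was checked against 10 markers, and each of them had more than 3 reads in every tumor. Their summed level was 1521, 1189.8 and 1618 FPKM in tumors 1, 2 and 3, and the most abundant by mean was Cd8b1, a chain of the CD8 coreceptor. Cd8a had 259, 122 and 218 FPKM in tumors 1, 2 and 3, against 28.4, 4.28 and 8.22 for Cd4. The T-cell kinase gene Lck had 159.6, 208 and 207 FPKM. No sorting of cells is named, and in whole tissue fewer cells of a type and less RNA per cell cannot be told apart.

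Janus kinases sit on the inner tails of cytokine receptors, and when a ligand draws the receptor chains together they phosphorylate each other, the receptor and the STAT transcription factors that dock there. STATs then enter the nucleus and switch on target genes, among them the SOCS genes, whose products bind the receptors or the kinases and close a negative feedback loop. In T cells the pair of Jak1 and Jak3 carries the signals of interleukins that use the common gamma chain, and the SOCS proteins limit how long these signals and those of interferons last.

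All 10 members were expressed, and they fell into a spread of mean levels from 3.14 FPKM for Socs5 to 102.8 for Jak1. In the deposited FPKM the largest differences between tumors were those of 4 inhibitors. The range of a gene, its highest FPKM divided by its lowest over the 3 tumors, was below 2 for 4 of 4 kinases and at least 2 for 4 of 6 inhibitors (Socs1, Socs2, Socs3 and Cish), while Socs5 and Socs7 had 1.53. The median range was 1.66 for the kinases and 4.19 for the inhibitors, beside 1.68 over the 11197 genes with a mean of at least 1 FPKM. In the same order, these medians were 1.48, 3.43 and 1.31 without tumor 1, 1.43, 2.44 and 1.34 without tumor 2, and 1.32, 1.52 and 1.497 without tumor 3. With median-of-ratios scaling Jak1 passed 2 as well, with a range of 2.33, and with scaling to the summed Cd3 chains Tyk2 (2.17) and Socs5 (2.12) did. Under these scalings 32.3% and 49.9% of all genes had a range of at least 2, against 34.4% in the deposited FPKM. With each tumor rescaled to the same FPKM sum it was 47.9%, over more genes. The filter on the mean followed the scaling, and this rescaling multiplied values by 4.47 to 5.30. With a filter at 0.2 in the deposited FPKM the share was 43.4%.

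**Figure D1:**
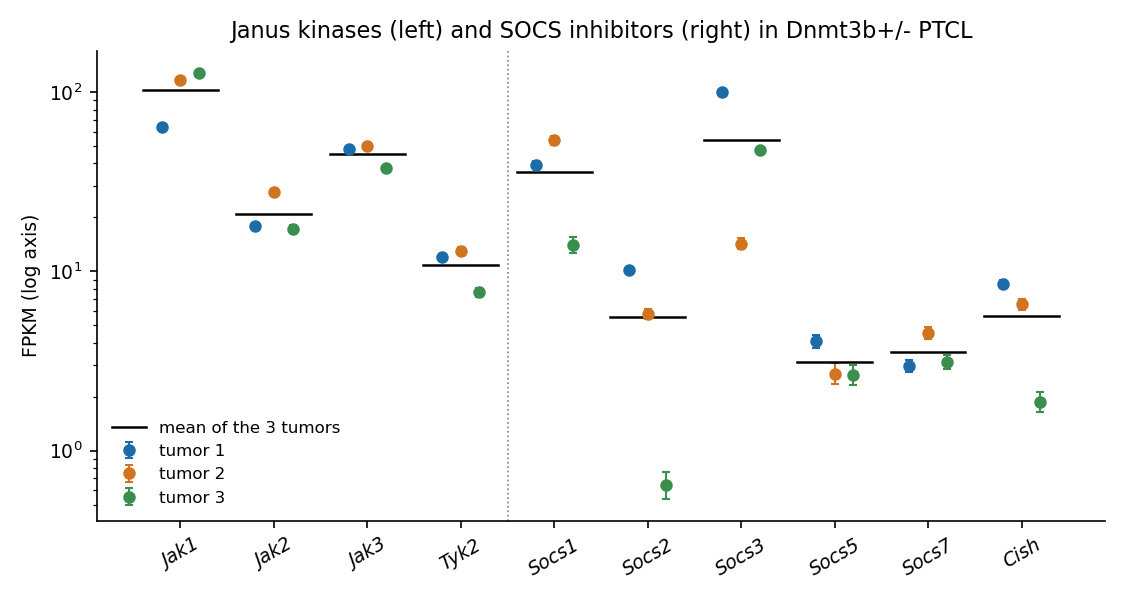
FPKM of the 10 members on a log axis, with a point for each of the 3 tumors, its exact Poisson 95% interval on reads, and a black line for the mean. Jak1 had the highest mean (102.8 FPKM) and Socs5 the lowest (3.14), and the points of Socs2 lie farthest apart, from 0.642 to 10.2 FPKM.

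Jak1, the kinase shared by the gamma chain, interferon and gp130 receptors, had the highest mean of the members, though in tumor 1 Socs3 was higher. Its gene (ENSMUSG00000028530) lies on mm10 at chr4:101152367-101265282, and its level was 64.3, 117 and 128 FPKM in tumors 1, 2 and 3, with a mean of 102.8 ± 33.8 (SD, n = 3). Tumor 1 was the low one, also under each of the 3 other scalings tried, and the range was 1.98. Only a small share of genes was more abundant: 97.7% of the genes with a mean of at least 1 FPKM had a lower mean. The values rest on 14270, 15998 and 19144 reads.

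Jak3, which binds the common gamma chain and is largely limited to blood cells, was the second kinase in level. It had 48.4, 50.2 and 37.5 FPKM in tumors 1, 2 and 3, a mean of 45.4 ± 6.85 (SD, n = 3). Its range was 1.34, and it was lowest in tumor 3 under every scaling. Which tumor was highest depended on the scaling, since rescaling each tumor to the same FPKM sum, or to the Cd3 chains, put tumor 1 above tumor 2. Its gene (ENSMUSG00000031805, chr8:71676296-71690575) overlaps Insl3 by 1362 bases on the same strand, and Insl3 had 21.1, 26.6 and 11.8 FPKM.

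Jak2, the kinase of the signalling chain of the interferon gamma receptor and of single-chain hormone receptors, had 17.9, 27.8 and 17.2 FPKM in tumors 1, 2 and 3. Its mean was 20.97 ± 5.91 (SD, n = 3), and tumor 2 was the high one under every scaling. Tumors 1 and 3 were close together, and median-of-ratios scaling turned their order. Tyk2, which pairs with Jak1 or Jak2 on type I interferon and interleukin-12 receptors, was the least abundant kinase. It had 12.0, 13.0 and 7.64 FPKM in tumors 1, 2 and 3, with a mean of 10.9 ± 2.83 (SD, n = 3). Tumor 3 was the low one under every scaling. An antisense gene, 1700084C06Rik, covers 24326 bases of the Tyk2 locus and had 10.3, 13.5 and 12.5 FPKM. Whether reads were assigned by strand is not stated, so part of the Tyk2 level may belong to it.

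Jak1 made up a different share of the kinase FPKM in each tumor: 45.1%, 56.2% and 67.2% in tumors 1, 2 and 3. The summed level of the 4 kinases was 143, 208 and 189.9 FPKM in tumors 1, 2 and 3. Jak1 was the most abundant kinase in every tumor, followed by Jak3, then Jak2, then Tyk2. This order held in all 3 tumors.

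Socs3, which binds gp130 and other receptors together with the kinase and blocks it, was the inhibitor with the highest mean, which rests on tumor 1: without it the mean was 31.1 FPKM, below the 34.0 of Socs1. It had 100, 14.3 and 47.8 FPKM in tumors 1, 2 and 3, a mean of 54.0 ± 43.2 (SD, n = 3) resting on 8883, 782 and 2873 reads. The 3 tumors were far apart, with tumor 1 high and tumor 2 low under every scaling, and the range was 7.01. Without tumor 2 the range was 2.09. Of 5 neutrophil markers, S100a8 and S100a9 had the same order of tumors, Mpo, Elane and Ly6g had at most 1 read in every tumor, and their part in the Socs3 values was not tested. Of the genes with a mean of at least 1 FPKM, 741 (6.62%) had a range at least as high. The gene (ENSMUSG00000053113) lies at chr11:117966079-117970047 on the minus strand. Its upstream sequence is shown because Socs3 is a known STAT target whose level differed strongly between the tumors. RefSeq gives promoter windows, from 250 bases before the start to 50 after it, for 7 of the 10 members (Jak1, Jak2, Jak3, Tyk2, Socs1, Socs3 and Cish; build GRCm38.p6), and not for Socs2, Socs5 and Socs7. The windows were searched on both strands for the STAT motif TTCNNNGAA, which reads the same on either strand. Socs3 held 1 match, TTCTTAGAA, which begins 154 bases before the RefSeq start. The bases at chr11:117969452-117969616, minus strand, are the part of the window that precedes the GENCODE exon within it, with the motif in capitals.
Socs3: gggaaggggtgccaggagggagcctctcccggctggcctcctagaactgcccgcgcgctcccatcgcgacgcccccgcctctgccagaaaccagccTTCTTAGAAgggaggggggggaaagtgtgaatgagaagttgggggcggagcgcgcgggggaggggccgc
A STAT motif was present in the 250 bases before the start of 7.02% of 32851 RefSeq promoters. A match is a description of letters, not a binding site, and these bases lie inside the GENCODE gene, whose outermost start is 681 bases upstream of the RefSeq start.

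Socs1, which blocks the kinases directly and restrains interferon gamma signals above all, had 39.3, 54.0 and 14.0 FPKM in tumors 1, 2 and 3. Its mean was 35.8 ± 20.2 (SD, n = 3), and tumor 3 was the low one and tumor 2 the high one under every scaling. The range was 3.84, and 1.37 without tumor 3. The gene (ENSMUSG00000038037) lies at chr16:10783808-10785536 on the minus strand, and its tumor values rest on 1473, 1249 and 356 reads. Its promoter is shown because interferon regulatory factors (IRFs) are known to act on this gene. The IRF motif searched was GAAANNGAAA, or TTTCNNTTTC on the other strand. The window held 2 overlapping matches, GAAAGAGAAA beginning 83 bases before the start and GAAACCGAAA beginning 77 bases before it. Both are in capitals in the 250 bases before the start, chr16:10785537-10785786, minus strand, from RefSeq.
Socs1: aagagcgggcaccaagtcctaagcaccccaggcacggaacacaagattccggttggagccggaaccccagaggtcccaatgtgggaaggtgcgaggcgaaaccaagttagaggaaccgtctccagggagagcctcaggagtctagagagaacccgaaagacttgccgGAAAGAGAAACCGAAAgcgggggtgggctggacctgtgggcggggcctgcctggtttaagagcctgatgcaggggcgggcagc
Of the 32851 RefSeq promoters, 2.98% held an IRF motif in these 250 bases and 0.180% held 2 or more. The other 6 windows held no IRF motif.

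Cish and Socs2, classical targets of STAT5 that bind cytokine and growth hormone receptors, were both highest in tumor 1 and lowest in tumor 3 under every scaling. Cish had 8.49, 6.56 and 1.88 FPKM in tumors 1, 2 and 3, a mean of 5.64 ± 3.40 (SD, n = 3) and a range of 4.53. Without tumor 3 this range was 1.29, so the spread of Cish came from the low value there. The gene (ENSMUSG00000032578) lies at chr9:107296026-107302784 on the plus strand. The bases around its RefSeq start are shown because Cish is known as a STAT5 target, and its window held 2 STAT motifs, TTCCTGGAA at position 1 and TTCTTGGAA at position 12, counted from 1 at the start. They are in capitals in the 30 bases at chr9:107296654-107296683, plus strand.
Cish: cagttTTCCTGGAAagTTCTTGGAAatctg
Windows of 300 bases held a STAT motif in 8.30% of the 32851 promoters and 2 or more in 0.457%. The RefSeq start lies 633 bases inside the GENCODE gene, and the windows of Jak1, Jak2, Jak3, Tyk2 and Socs1 held no STAT motif. The antisense gene Gm17041 overlaps Cish by 1459 bases, and its FPKM of 19.7, 15.0 and 4.92 followed the same order of tumors as Cish. How reads in the overlap were shared between the genes is not stated.

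Socs2 had the largest range of the members, a result that rests on tumor 3. It had 10.2, 5.80 and 0.642 FPKM in tumors 1, 2 and 3 (2980, 1048 and 127 reads), with a mean of 5.54 ± 4.77 (SD, n = 3). The range was 15.9, and 428 genes with a mean of at least 1 FPKM (3.82%) had a range at least as high. The 95% interval of the lowest value, 0.535 to 0.763 FPKM, lies far below the 5.45 to 6.16 FPKM of tumor 2. The range was 6.81 when 1 was added to each FPKM, beside 6.62 for Socs3 in the same setting. Without tumor 3 the range of Socs2 was 1.76, below the 7.01 of Socs3. The gene (ENSMUSG00000020027) lies at chr10:95385362-95417180. Myeloid markers had the same order of tumors, with sums of 387, 132 and 34.4 FPKM, and their part in the Socs2 and Cish values was not tested.

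The levels of Socs2 and Cish depend on the gene model. Their merged exons are 4.29 and 2.25 times as long as their longest coding transcript. With the length of that transcript the mean was 23.8 FPKM for Socs2 and 12.7 for Cish, so Socs2 would stand above Jak2 (20.97). Ranges between tumors do not change with the length.

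Socs5 and Socs7, SOCS proteins with long amino-terminal regions, had the lowest means of the 10 members, though in tumor 3 Socs2 and Cish were lower. Socs5 (ENSMUSG00000037104, chr17:87107679-87137583) had 4.07, 2.69 and 2.65 FPKM in tumors 1, 2 and 3, a mean of 3.14 ± 0.807 (SD, n = 3) and a range of 1.53. Tumor 1 was the high one, while tumors 2 and 3 were not distinguishable by their reads, 224 and 242, and exchanged places with median-of-ratios scaling. Socs7 (ENSMUSG00000038485, chr11:97362551-97398542) had 2.97, 4.54 and 3.13 FPKM, a mean of 3.55 ± 0.864 (SD, n = 3) and likewise a range of 1.53. Tumor 2 was the high one under every scaling.

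By mean FPKM the members ran in the order Jak1, Socs3, Jak3, Socs1, Jak2, Tyk2, Cish, Socs2, Socs7 and Socs5. Most neighbours in this order were not apart. Jak2 and Tyk2 alone had tumor values that did not overlap, and Jak2 over Tyk2 and Tyk2 over Cish were the pairs whose order held in all 3 tumors. Each of the other 7 pairs of neighbours kept its order in 2 of 3 tumors. For all 10 members the highest and the lowest tumor were apart by their exact Poisson 95% intervals on reads, which cover counting error only. The same held for 86.9% of 9771 genes with a mean of at least 1 FPKM and whole reads recovered from GENCODE lengths.

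The share of members was compared with that of all genes at several ranges. A range of at least 2 was reached by 4 of the 10 members, beside 34.4% of the 11197 genes with a mean of at least 1 FPKM. A range of at least 1.5 was reached by 9 members, all but Jak3, beside 62.8% of genes. The same 4 inhibitors, Socs1, Socs2, Socs3 and Cish, reached 3, beside 16.4% of genes. Without tumor 3 the number of members at 2 or more was 1, Socs3, beside 26.2% of genes. It was 4 without tumor 1, beside 15.8% of genes, and 4 without tumor 2, beside 17.6%.

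**Figure D2:**
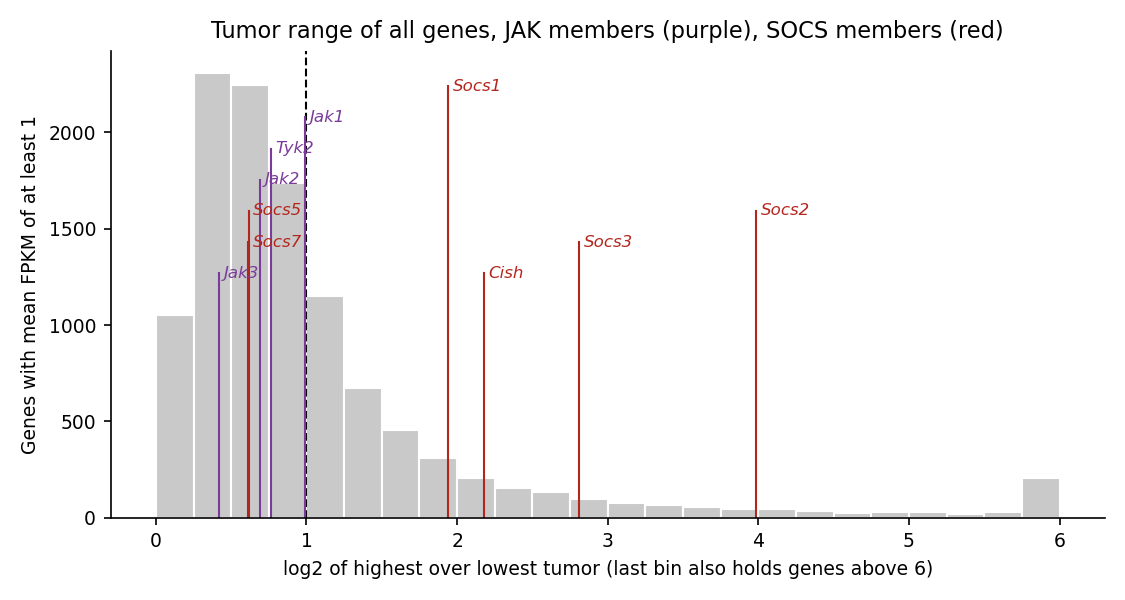
Histogram of the range (highest over lowest FPKM of the 3 tumors, log2 axis) of the 11197 genes with a mean of at least 1 FPKM, with lines at the 10 members. Socs2 (15.9), Socs3 (7.01), Cish (4.53) and Socs1 (3.84) lie in the right tail, and the other 6 members lie below 2.

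Most members had their lowest value in tumor 3, with a number that depended on the scaling. Tumor 3 was the lowest for 7 of 10 members (Jak2, Jak3, Tyk2, Socs1, Socs2, Socs5 and Cish), beside 37.4% of genes. With median-of-ratios scaling it was the lowest for 5, Jak2 and Socs5 leaving, beside 27.0% of genes. With rescaling to the same FPKM sum or to the Cd3 chains it was the lowest for 8, Socs7 joining, beside 50.5% and 54.1% of genes. The order tumor 2, tumor 1, tumor 3, from high to low, was that of Jak2, Jak3, Tyk2 and Socs1, 4 members beside 16.9% of genes. The order tumor 1, tumor 2, tumor 3 was that of Socs2, Socs5 and Cish, 3 members beside 20.5% of genes. Jak1, Socs3 and Socs7 each had an order of their own, that of Socs3 (tumor 1, tumor 3, tumor 2) beside 30.2% of genes. Of these orders, those of Jak1, Socs1, Socs2, Socs3 and Cish were the same under all 3 other scalings.

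The balance of inhibitor to kinase RNA differed between tumor 1 and the others. The FPKM of the 6 inhibitors summed to 165, 87.8 and 70.2 in tumors 1, 2 and 3. Divided by the kinase sum, this gave a ratio of 1.16, 0.423 and 0.370 in tumors 1, 2 and 3. Its mean was 0.650 ± 0.440 (SD, n = 3), or 0.396 without tumor 1. No scaling of whole tumors can change this ratio, since both sums come from the same tumor. The value of tumor 1 rested on Socs3. It held 60.6% of the inhibitor FPKM there, 16.2% in tumor 2 and 68.2% in tumor 3, while Socs1 held 23.8%, 61.5% and 20.01%. With Socs3, the inhibitor with the highest mean, left out, the ratio was 0.456, 0.354 and 0.118, so tumors 1 and 2 were nearer to each other and tumor 3 was the low one.

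**Figure D3:**
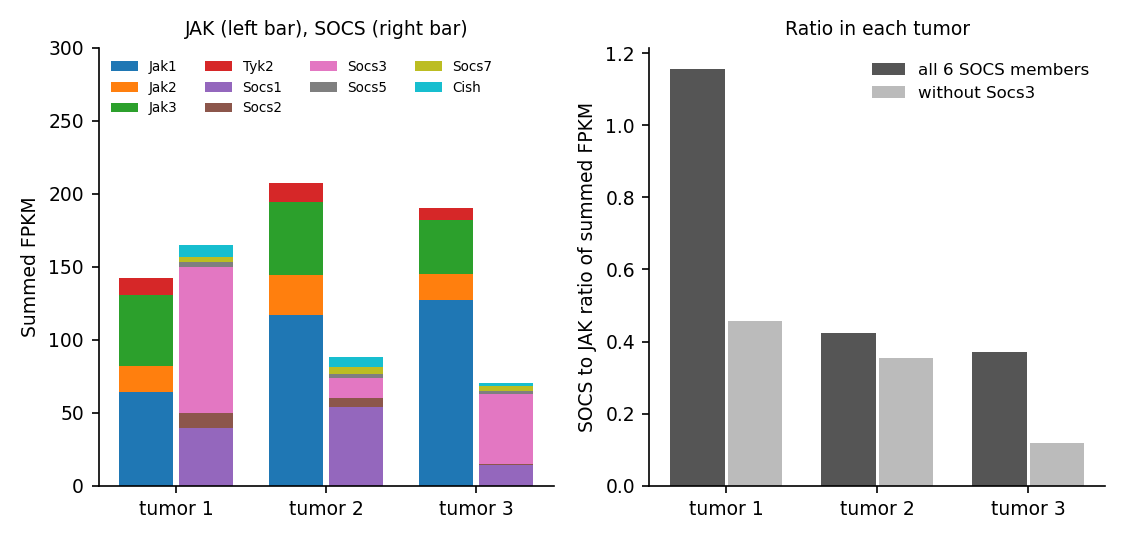
Summed FPKM of the 6 SOCS members divided by that of the 4 JAK members in each of the 3 tumors (right), beside the sums stacked by member (left). Tumor 1 stands at 1.16 with Socs3 and at 0.456 without it.

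Among the ligands of these receptors, 4 of 16 cytokine genes had a mean of at least 1 FPKM (Osm, Ifng, Il4 and Il10), and Il4 and Il10 reached it through tumor 1 alone. Osm, a gp130 cytokine of the kind that induces Socs3, had 12.5, 2.53 and 3.11 FPKM in tumors 1, 2 and 3. Ifng, the ligand that acts through Jak1 and Jak2 and induces Socs1, had 8.49, 1.10 and 1.12 FPKM. Its order was not that of Socs1, which was highest in tumor 2. Il4 had 132 reads in tumor 1, none in tumor 2 and 2 in tumor 3. Il10 had 2.43, 0.201 and 0.441 FPKM, from 98, 5 and 12 reads. Without tumor 1 the range was 1.23 for Osm and 1.01 for Ifng.

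Of the receptor genes, 15 of the 20 with a mean of at least 1 FPKM had a range of at least 2, beside 34.4% of all genes. Their median range was 3.27, beside 1.68 for all genes, and 6 of the 26 receptor genes were below 1 FPKM. Il2rb, the beta chain that holds Jak1, had the highest mean, with 162, 526 and 435 FPKM in tumors 1, 2 and 3. Like Jak1 it was lowest in tumor 1. Il2rg, the gamma chain that holds Jak3, had 225, 296 and 344 FPKM, a range of 1.53. Ifngr1, the ligand-binding chain of the interferon gamma receptor, had 64.1, 182 and 72.3 FPKM. Like Jak2, it was highest in tumor 2 under every scaling. Ifngr2, the other chain of this receptor, had 5.54, 1.05 and 1.09 FPKM. Unlike Jak2, it was highest in tumor 1 and, in the deposited FPKM, lowest in tumor 2. The largest ranges belonged to Il7r, with 30.7, 0.641 and 64.5 FPKM, to Il2ra, with 43.2, 9.98 and 1.96, and to Il6ra, with 20.95, 0.970 and 14.2. Il6ra, the interleukin-6 receptor that signals with gp130, thus had the order of Socs3, which 30.2% of all genes had. Il2ra, itself a STAT5 target, had the order of Socs2 and Cish, which 20.5% of all genes had. Without tumor 2 the receptor count was 6, beside 17.6% of all genes. It was 11 without tumor 1, beside 15.8%, and 12 without tumor 3, beside 26.2%.

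Among the 7 STATs, substrates of the kinases, Stat2 and Stat4 had a range of at least 2, beside 34.4% of all genes. Stat2, which acts for type I interferon, had 12.5, 31.3 and 8.11 FPKM in tumors 1, 2 and 3. It was highest in tumor 2 and lowest in tumor 3, the order of Socs1, Jak2, Jak3 and Tyk2. Stat4 had 19.9, 12.9 and 30.5 FPKM. Stat3, the factor that acts on Socs3, had 19.8, 14.5 and 17.8 FPKM, the tumor order of Socs3 with a range of 1.36, though tumor 3 came above tumor 1 with median-of-ratios scaling. Stat5a had 5.90, 4.52 and 5.02 FPKM and Stat5b 13.7, 10.8 and 12.9. Neither had its lowest value in tumor 3, where their targets Cish and Socs2 had theirs. Phosphorylation of STAT5 was not measured, and a link between these levels was not tested. Stat6 had 23.9, 23.7 and 25.5 FPKM. Without tumor 2 no STAT had a range of at least 2, and without tumor 3 the count was 1, beside 17.6% and 26.2% of all genes.

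SOCS proteins carry a SOCS box that joins them to an E3 ubiquitin ligase of elongins B and C, cullin 5 and a RING protein. All 5 partner genes had a mean of at least 1 FPKM. Elob had 83.4, 128 and 96.5 FPKM in tumors 1, 2 and 3, and Eloc 12.5, 5.66 and 10.52. Cul5, the scaffold, was the least abundant, with 4.05, 1.96 and 2.92 FPKM. The RING gene Rnf7 had 19.6, 15.5 and 19.5 FPKM, and Rbx1 had 26.9, 28.5 and 27.8. Eloc and Cul5 had a range of at least 2, at 2.21 and 2.07, beside 34.4% of all genes. With median-of-ratios scaling or without tumor 1 or tumor 2 the count was 0, beside 32.3%, 15.8% and 17.6%. In tumor 1 the level of Socs3, 100 FPKM, was above those of all partner genes, Elob included. In tumor 2 Elob (128 FPKM) was far above each of the inhibitors.

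Of the other inhibitors of the pathway, 2 of 11, Ptpn6 and Usp18, had a range of at least 2, beside 34.4% of all genes. Ptpn6, the phosphatase SHP-1 that acts on the kinases, had 65.0, 187 and 125 FPKM in tumors 1, 2 and 3. Ptprc, the phosphatase CD45, had 90.4, 87.4 and 75.3 FPKM. Usp18, which holds Jak1 off the type I interferon receptor, had 7.05, 81.5 and 30.4 FPKM, a range of 11.6. Both Ptpn6 and Usp18 were lowest in tumor 1, where the summed SOCS level was highest. Of the 11 genes, 3 were lowest in tumor 1, a share not counted over all genes, and 7 were highest there. Among all genes, 20.5% had the order tumor 1, tumor 2, tumor 3 and 30.2% the order tumor 1, tumor 3, tumor 2. Pias3, a STAT3 inhibitor, had 3.08, 2.69 and 1.57 FPKM. With scaling to the Cd3 chains the count with a range of at least 2 was 4, beside 49.9% of all genes. At a fold of 3 it was 1, beside 16.4%, and without tumor 1 or tumor 2 it was 1, beside 15.8% and 17.6%.

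**Figure D4:**
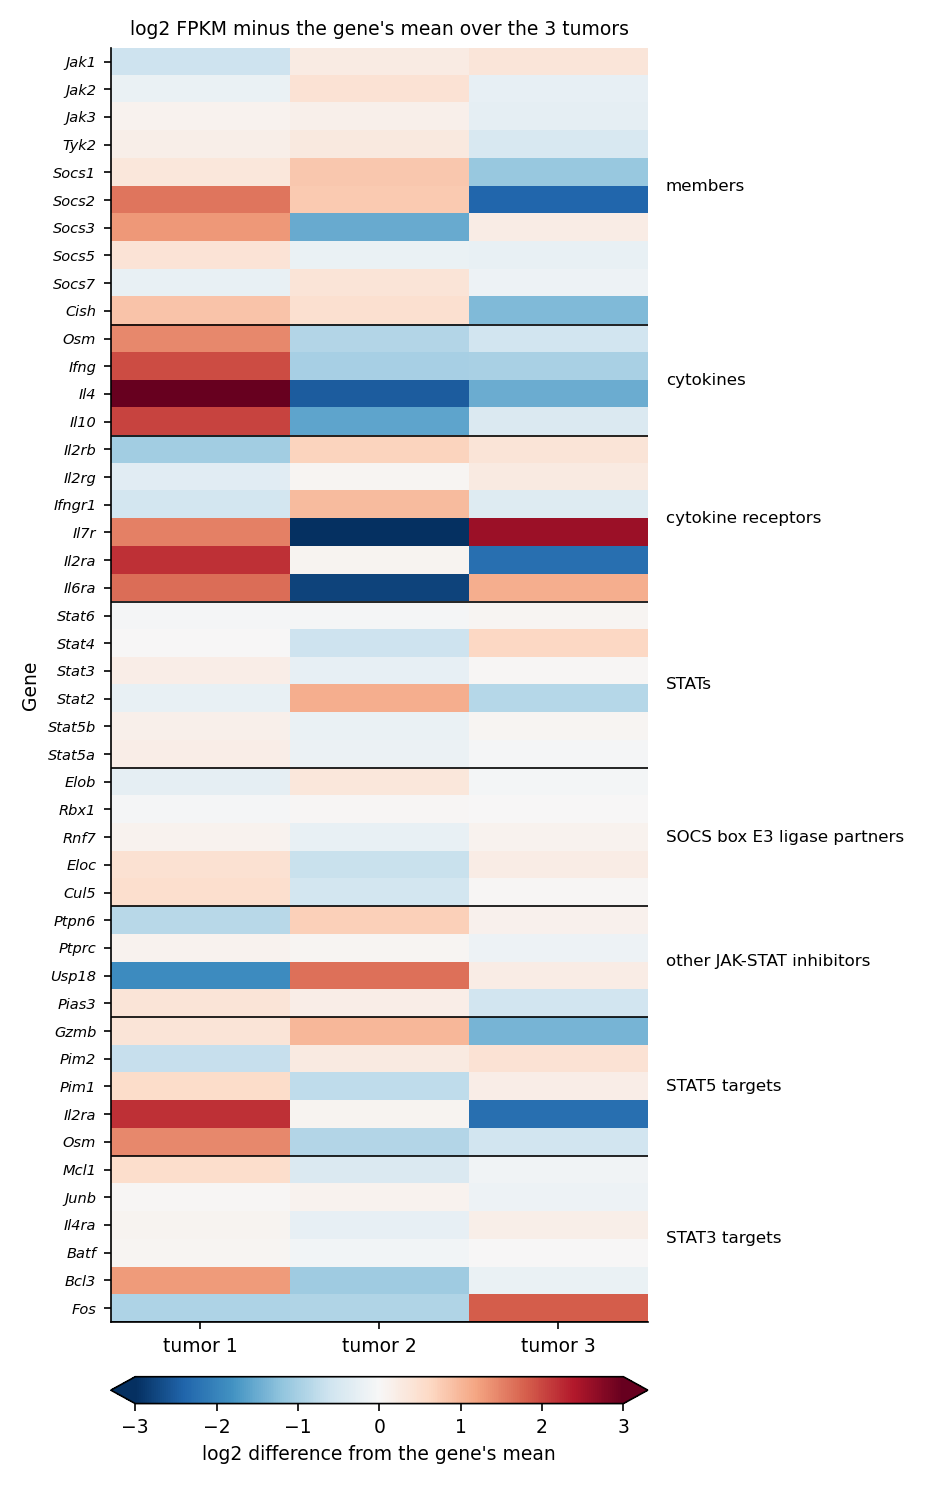
Heat map of log2 FPKM minus the gene's mean over the 3 tumors for the members and other genes of the pathway, with red for values above the mean and blue for those below. Socs2 and Cish are red in tumor 1 and blue in tumor 3, and the kinases are pale, with a median range of 1.66.

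Targets of STAT5 other than Cish and Socs2 showed several orders of tumors. Of 9, 6 had a range of at least 2, beside 34.4% of all genes. Gzmb, the granzyme B gene, had 463, 702 and 134 FPKM in tumors 1, 2 and 3, the order of Socs1. Pim1, a survival kinase, had 93.1, 37.4 and 73.3 FPKM, the order of Socs3, while Pim2 had 41.6, 81.6 and 91.0. Of the 9, 3 were lowest in tumor 3, as Cish and Socs2 were, beside 37.4% of all genes. Gzmb and Il2ra were among the 3, and the Pim genes were not. The count with a range of at least 2 was 3 without tumor 1 and 3 without tumor 3, beside 15.8% and 26.2% of all genes. At a fold of 3 it was 3, beside 16.4%.

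Of the targets of STAT3, Bcl3 and Mcl1 had the tumor order of Socs3 under every scaling, an order that 30.2% of all genes had in the deposited FPKM. Bcl3 had 14.0, 2.75 and 5.06 FPKM in tumors 1, 2 and 3, a range of 5.10, and Mcl1, a survival gene, had 87.2, 44.7 and 56.0, a range of 1.95. Batf, at 16.4, 14.9 and 15.9 FPKM, had little spread, and its order changed with each scaling. Junb had 35.4, 37.1 and 31.0 FPKM, Il4ra 34.95, 28.1 and 37.4, and Fos 0.747, 0.762 and 5.02. Fos was the gene of this list that was far higher in tumor 3 than in the others. Of these 6 genes, Bcl3 and Fos had a range of at least 2, and 1 gene did without tumor 1 or without tumor 3. Over all the lists, 35 of 69 genes (50.7%) did, with a median range of 2.07, beside 34.4% and 1.68 for all genes. Without tumor 1 this count was 20, beside 15.8% of all genes, and without tumor 2 it was 19, beside 17.6%.

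Genes whose profile over the 3 tumors was nearest to that of the most variable members were sought among 11196 genes. Nearness is the largest difference in log2 FPKM, centred on its mean, over the tumors. For Socs2 the nearest was Cd63, a membrane protein of lysosomes, with 5.14, 3.14 and 0.340 FPKM and a distance of 0.06. Dram1 (0.13) and Ctsl (0.17) followed, and 1 gene lay within 0.1. For Socs3 the nearest were Glcci1 (0.02), with 5.30, 0.761 and 2.50 FPKM, Trbj2-5 (0.06), with 4 reads in tumor 2, and As3mt (0.11).

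Markers of other cells differed between the tumors in orders that some members share, and their part in the members' values was not tested. Myeloid markers summed to 387, 132 and 34.4 FPKM in tumors 1, 2 and 3, the order of Socs2, Socs5 and Cish. Of 7, 6 were highest in tumor 1 and 6 were lowest in tumor 3, the most abundant was Lyz2, and none had 3 reads or fewer. Among all genes, 37.4% were lowest in tumor 3. The orders with tumor 1 highest held 20.5% (tumor 3 lowest) and 30.2% (tumor 2 lowest) of all genes. Erythroid markers had the order of the myeloid sum in 5 of 5 genes. Their sums were 202, 38.4 and 4.74 FPKM, with Hba-a1 as the most abundant and Hba-a2 at 1 read in tumor 3. Endothelial markers summed to 13.5, 12.8 and 5.12 FPKM, with Pecam1 as the most abundant and none at 3 reads or fewer, and 4 of 4 were lowest in tumor 3. Proliferation genes, led by Pcna, summed to 223, 152 and 126 FPKM. Of 6, 5 were highest in tumor 1 and 5 were lowest in tumor 3.

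Neutrophil markers had the order of Socs3, with sums of 35.9, 1.35 and 14.8 FPKM in tumors 1, 2 and 3. This came from S100a9, the most abundant, and S100a8, while the other 3 were near 0 in every tumor. The sums of fibroblast and of pancreatic acinar markers had the order of Socs1, Jak2, Jak3 and Tyk2, which 16.9% of all genes had. Dcn, a fibroblast marker, was highest in tumor 1 instead, with 5.04, 3.27 and 0.00825 FPKM. Fibroblast markers, led by Col1a1, summed to 10.1, 41.0 and 0.345 FPKM, with 3 reads or fewer for Col1a2, Col3a1 and Dcn and no read for Pdgfra in tumor 3. Acinar markers, led by Ctrb1, summed to 83.6, 430.2 and 0.653 FPKM, and 8 of 8 were highest in tumor 2 and lowest in tumor 3, where Ctrb1 and Cel had no read. B-cell markers, led by Cd79a, summed to 62.1, 50.2 and 118 FPKM. Of 6, 5 were lowest in tumor 2, while Cd22 was highest there, with 5.84, 36.5 and 13.9 FPKM, and made up most of that sum. NK-cell markers, led by Klrd1, summed to 57.9, 110 and 73.7 FPKM, the order of Socs7 in the deposited FPKM. Of these 4 genes Klrb1c had that order, while Klrd1, Eomes and Ncr1 each had another. None of these lists had the order of Jak1.

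**Figure D5:**
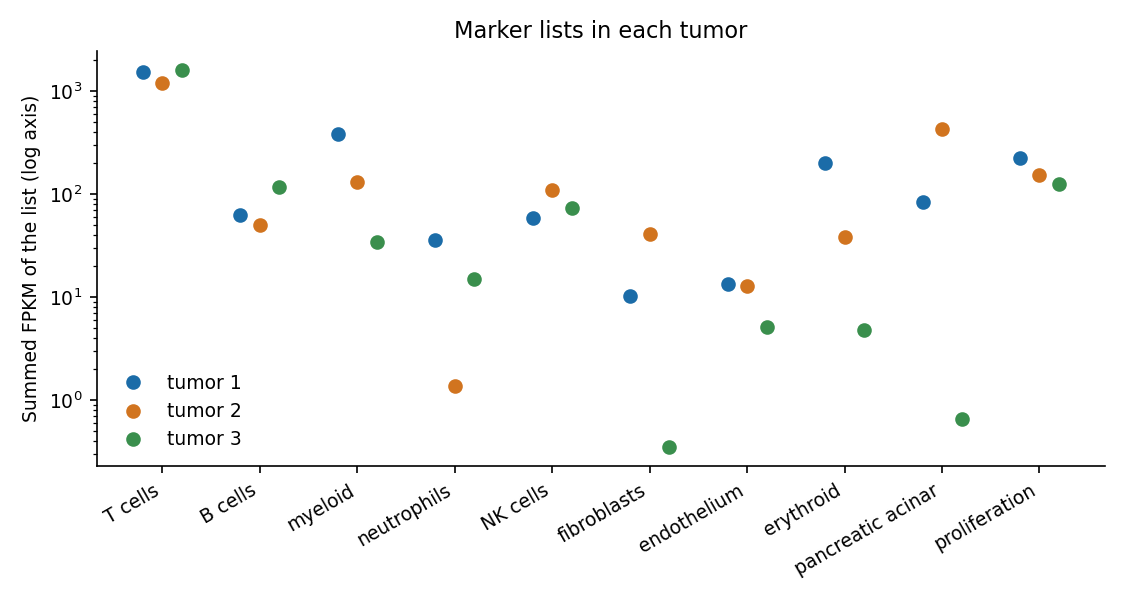
Summed FPKM of each marker list on a log axis, with a point for each of the 3 tumors, and genes without a read counted at the FPKM of 0.9 read. T-cell markers lie between 1189.8 and 1618 FPKM in every tumor, while myeloid markers run from 34.4 to 387 and acinar markers from 0.653 to 430.2.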

How the data were processed

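RNA-seq of 3 Dnmt3b+/- PTCL was analysed. The authors aligned reads to mm10 with STAR and quantified them with SeqMonk (versions not given in the sources used here), and the values the authors deposited are FPKM on a linear scale. Members were found by symbol; the members and lists were chosen with earlier results of these data known. Dates standing for 26 symbols were restored from the identifiers. A gene with no read carries the FPKM of 0.9 read, from which the depth of each library was solved (18969988 to 30726570 reads). For 8 members reads were recovered from the merged exon lengths in GENCODE M21. For Socs1 and Socs5 the shortest length that gave whole reads was used, 1220 and 4392 bases. The steps were tested on simulated data. Ranges were counted among genes with a mean of at least 1 FPKM, taken after any scaling. No test between groups could be made.

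Named genes were the members, the 3 genes nearest to each of the 2 most variable members, and the most abundant gene of each marker list. From the pathway lists they were drawn from the 3 highest by mean and the 3 with the highest range (all of a list of 7 or fewer). Others were chosen after their values were seen. Alternatives were 3 scalings, FPKM + 0.1 and FPKM + 1, folds of 1.5 and 3, filters at 0.2 FPKM and none, other SOCS to JAK ratios, and each tumor left out. The length of the longest coding transcript, and the scalings for the count of genes lowest in tumor 3, were added after seeing the data. Software was SciPy 1.17.1, NumPy 2.4.6 and pandas 2.3.3 under Python 3.11, with matplotlib 3.10.9 for plots.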

Additional observations from a re-analysis of the deposited data

How the results depend on the processing

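With 3 tumors of 1 group, the values describe these tumors, and intervals do not cover differences between animals. No paired analysis was possible because the RNA-seq libraries form a single group. Levels depend on the gene model and on the unit. Rescaled so that FPKM sum to 1000000, the means were 491 for Jak1, 102.1 for Jak2, 222 for Jak3, 53.4 for Tyk2, 177 for Socs1, 28.3 for Socs2, 271 for Socs3, 15.5 for Socs5, 17.2 for Socs7 and 28.4 for Cish; this changes the unit. With the length of the longest coding transcript they were 151 for Jak1, 60.4 for Jak3, 15.4 for Tyk2, 23.8 for Socs2 and 12.7 for Cish, because that length is shorter. The count of members with a range of at least 2 was 9 at a fold of 1.5 and ran from 1 to 4 with a tumor left out. The share of all genes was 62.8% at a fold of 1.5, 16.4% at a fold of 3, and 15.8% to 26.2% with a tumor left out. Of the genes in the pathway lists, 19 to 27 passed with a tumor left out. Fewer tumors can only lower a range. The SOCS to JAK ratio of tumor 1 was 0.456 without the SOCS member with the highest mean and 0.281 as a median over a median, and its mean over tumors was then 0.182. Scaling to the Cd3 chains moved the median log2 range of all genes by 0.24. The order of tumors changed with a scaling for Jak2, Jak3, Tyk2, Socs5 and Socs7. The order of members by mean changed too. Socs2 was above Cish with Cd3 scaling, and also when tumor 2 or tumor 3 was left out. With tumor 2 left out, Socs5 (3.36) was above Socs7 (3.05). Without tumor 1, Jak3 (43.9) and Socs1 (34.0) were above Socs3 (31.1), and Socs7 (3.84) was above Socs2 (3.22). With the longest coding transcript, Socs2 was above Jak2 and Cish.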
